A study of Mus musculus with 20 samples.

Results

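BNAP/GRP1 and PFMP are a pair of progenitor gates sorted from the brain of P5 (postnatal day 5) Swiss Webster mouse pups, and the data set them side by side in 8 of the 20 libraries of the series. Each population had 4 libraries, 1 in each of 4 numbered batches, so the members are the 4 BNAP/GRP1 columns and the 4 PFMP columns of the table, paired by batch number. The labels give a batch by its number alone, all pups of a litter were pooled with both sexes together, and neither population had a genetic change or treatment. Both gates took cells that carried NG2 and CD15 (LeX) and lacked CD133. The gates differed in 1 of the 4 antigens: BNAP/GRP1 cells lacked CD140a and PFMP cells carried it. BNAP and GRP1 share these antigens, so that gate holds a mixture. No antigen of immune cells was used for either gate. The RNA was amplified from its polyA tails before sequencing, and the table gives RPKM, a read count per length of gene and per size of library. A library is called here by its population and batch number, as in PFMP 3, which stands for the library so labelled. All differences below are PFMP minus BNAP/GRP1 in log2(RPKM + 1) unless fold is written. Of 45705 genes in the table, 15452 reached 1 RPKM in 4 or more of these libraries and were tested.

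CD140a is the alpha receptor for platelet-derived growth factor, the product of Pdgfra, and the classical surface marker of oligodendrocyte progenitors. These cells divide in response to PDGF and are specified by Olig2, Olig1, Sox10 and Nkx2-2. Microglia, the resident macrophages of the brain, come from the yolk sac. They depend on the transcription factor PU.1 (Spi1) and signal through Trem2 and its adaptor Tyrobp, and resting microglia are told from other macrophages by P2ry12, Tmem119 and Cx3cr1. In bulk RNA, fewer cells of a type and less of its RNA per cell cannot be told apart.

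The 8 libraries were of unequal quality, and batch 3 and BNAP/GRP1 4 stood apart. The most common ratio of values above 0 to those of BNAP/GRP1 1 was taken as the relative value of 1 read. Its inverse is an estimate of relative depth. With BNAP/GRP1 1 set to 1, the estimate was lowest in BNAP/GRP1 4 (0.0395) and highest in BNAP/GRP1 3 (1.41). By this estimate BNAP/GRP1 was 8.5 times as deep as PFMP in batch 1, 1.1 times in batch 2 and 1.26 times in batch 3. In batch 4 PFMP was 25 times as deep as BNAP/GRP1 by it. Yet BNAP/GRP1 4 listed the most genes above 0 (38191, against 24102 in PFMP 4). It also had fewer tested genes at 0 (242, against 895 in PFMP 4), so its estimate is uncertain. Read totals are not in the table, so no counting interval is given, and a value of 0 says only that the gene is listed at 0. The quartiles of the tested genes were 7.74 and 19.8 RPKM in BNAP/GRP1 4. In the other libraries the lower quartile lay between 1.06 and 2.22 RPKM and the upper quartile between 14.7 and 23.5 RPKM. BNAP/GRP1 4 listed 1240 of 1257 olfactory receptor genes at 1 RPKM or more, while the other libraries listed between 0 and 172. In batch 3, 97.6% of the genes at 10 RPKM or more in either library were within 2-fold between the populations, against 47.2% in batch 1, 40.2% in batch 2 and 27.8% in batch 4. The test was therefore run with all batches, without batch 3, and in batches 1 and 2 alone, and lists of genes are described mainly in batches 1 and 2.

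**Figure D1:**
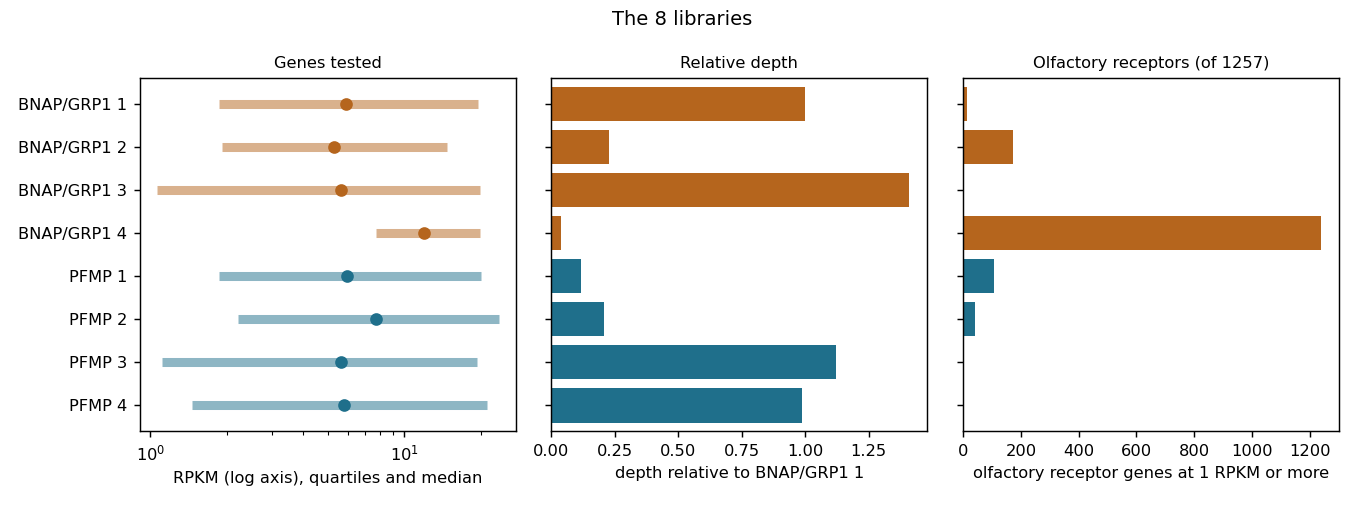
The left panel gives the lower quartile, median (point) and upper quartile of RPKM over the 15452 tested genes on a log axis, the middle panel the depth relative to BNAP/GRP1 1, and the right panel the number of olfactory receptor genes at 1 RPKM or more, for each library. BNAP/GRP1 4 has the narrowest spread, the lowest estimated depth (0.0395) and 1240 olfactory receptor genes at 1 RPKM or more.

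Does the RNA follow the gate? Pdgfra (ENSMUSG00000029231, GRCm38 chr5:75152292-75198215, plus strand) stood at 3.59, 3.47, 2.26 and 24.1 RPKM in BNAP/GRP1 1 to 4, and at 658, 239.8, 3.84 and 96.9 RPKM in PFMP 1 to 4. It was higher in PFMP in all 4 batches, but PFMP 3 lay within the range of BNAP/GRP1, so the library labelled PFMP in batch 3 did not carry the RNA of its sort antigen at the level of the other PFMP libraries. The mean was 6.54 ± 3.06 in PFMP and 2.68 ± 1.33 in BNAP/GRP1 on the log2 scale (SD, n = 4 each). The paired difference was 3.86 ± 0.982 (SE), which did not pass limma's test over all genes (adjusted p = 0.595). It was 4.96 ± 0.929 without batch 3 (adjusted p = 0.0452) and 6.46 ± 0.814 in batches 1 and 2 (adjusted p = 0.0222), where RPKM + 1 was 88 times as high in PFMP. Over all alternatives the adjusted p of Pdgfra ran from 0.0222 to 1.

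The other antigens were selected alike in both gates. Cspg4, which encodes NG2, was listed at 0.844, 0.249, 0.0362 and 8.49 RPKM in BNAP/GRP1 1 to 4 and at 23.5, 146, 0.398 and 4.7 RPKM in PFMP 1 to 4. Its RNA was below 1 RPKM in 3 of the 4 BNAP/GRP1 libraries, although both gates required NG2. Prom1, which encodes CD133, the antigen absent from both gates, lay between 0.662 and 35.5 RPKM in BNAP/GRP1 and between 0.255 and 18.2 RPKM in PFMP, with a paired difference of -0.45. Fut9, a fucosyltransferase that makes the CD15 epitope, was at 2.33, 1.17, 0.0581 and 8.12 RPKM in BNAP/GRP1 and at 11.8, 7.13, 0.112 and 7.72 RPKM in PFMP. Fut4, which makes the same epitope, was at most 1.78 RPKM in every library but BNAP/GRP1 4 (7.04 RPKM).

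**Figure D2:**
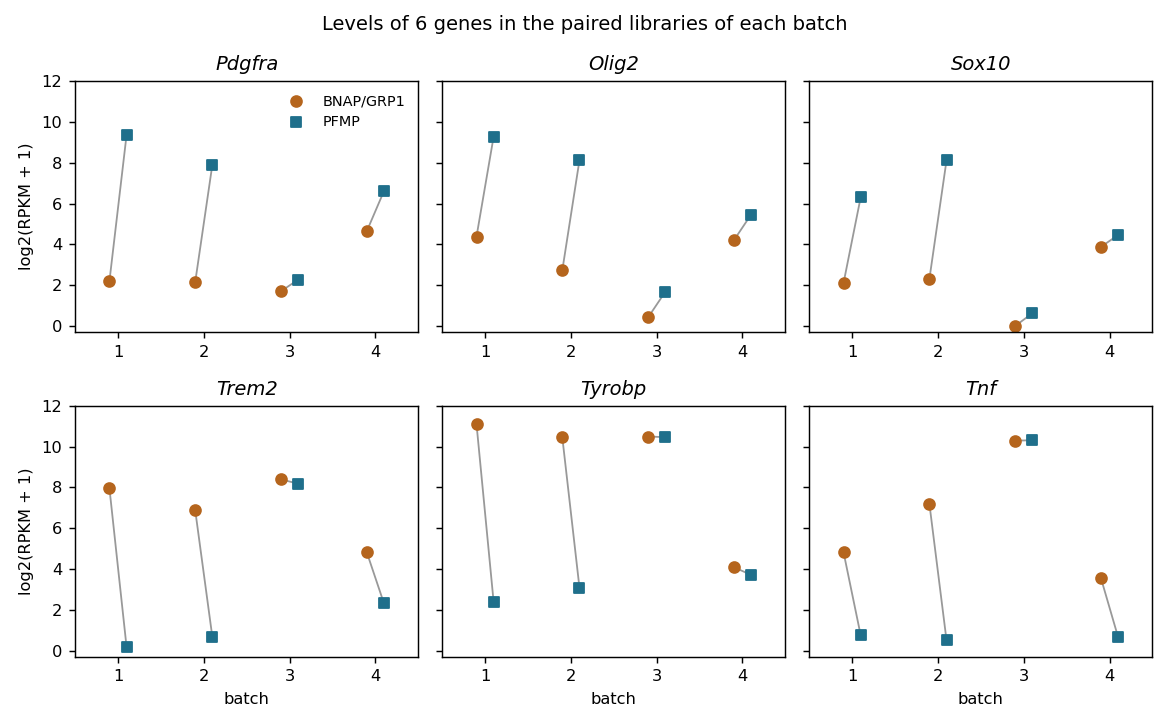
Each panel gives log2(RPKM + 1) of 1 gene by batch, with circles for BNAP/GRP1, squares for PFMP and a line joining the pair. Pdgfra, Olig2 and Sox10 are higher in PFMP and Trem2, Tyrobp and Tnf higher in BNAP/GRP1 in batches 1 and 2, while no pair of batch 3 is further apart than that of Olig2 (1.25).

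Across all 4 batches no gene passed an adjusted p of 0.05 in limma's paired test (0% of 15452). The smallest adjusted p was 0.489. At an unadjusted p under 0.05, 336 genes were higher in PFMP (2.17%) and 746 higher in BNAP/GRP1 (4.83%). Without batch 3, 32 genes passed: 6 were higher in PFMP (0.0388%) and 26 higher in BNAP/GRP1 (0.168%). In batches 1 and 2 alone 44 genes passed, 5 higher in PFMP (0.0324%) and 39 higher in BNAP/GRP1 (0.252%), and 16 genes passed in both of these fits. The fit of batches 1 and 2 had only 2 pairs of libraries. Its errors and p-values therefore leaned on limma's prior, a spread drawn from all genes, more than on each gene's own spread. Of the 32, 23 were protein coding, and of the 44, 40 were. Without batch 1, 124 genes passed, but only 15 of them were protein coding, while 47 were small or structural RNAs and 52 pseudogenes. Reads of such genes can belong to near-identical copies elsewhere, so they are uncertain. A difference of at least 2-fold in the same direction in both batches 1 and 2, the measure used below for lists, was met by 1408 genes higher in PFMP (9.11%) and 895 higher in BNAP/GRP1 (5.79%). Within single batches, 52.1%, 63.9%, 48.3% and 35.9% of the tested genes were higher in PFMP in batches 1 to 4, and 47.4%, 35.1%, 46.8% and 63.6% higher in BNAP/GRP1. The sign agreed in all 4 batches for 1197 genes higher in PFMP (7.75%) and 1080 higher in BNAP/GRP1 (6.99%).

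PFMP carried the RNA of oligodendrocyte progenitors in batches 1 and 2. All 18 genes of the oligodendrocyte progenitor list were higher in PFMP in both batches, and 17 were at least 2-fold higher in both. The median difference of the list was 3.29 in batch 1 and 3.76 in batch 2, against medians of 0.0598 and 0.472 over all tested genes. With all batches it was 1.9, 12 of the 18 had an unadjusted p under 0.05, and none passed after adjustment. Without batch 3 none of the 18 passed, and in batches 1 and 2 alone 1 did, Olig2. The summed level of the list was 204 and 170.5 RPKM in BNAP/GRP1 1 and 2, and 2567 and 3413 RPKM in PFMP 1 and 2. In batch 4 the median difference was 0.325, with 10 of 18 higher in PFMP.

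Olig2, the basic helix-loop-helix factor that specifies the lineage (GRCm38 chr16:91225457-91228677, plus strand), stood at 19.8, 5.63, 0.34 and 17.4 RPKM in BNAP/GRP1 1 to 4 and at 622, 277, 2.19 and 42.9 RPKM in PFMP 1 to 4. Its difference was 5.15 ± 0.762 (SE) in batches 1 and 2 (limma adjusted p = 0.0433, range over alternatives 0.0433 to 1). Every batch went the same way, although PFMP 3 was below 3 of the BNAP/GRP1 libraries. Olig1, its neighbour and paralogue, was at 33.6, 24.1, 0.926 and 25.3 RPKM in BNAP/GRP1 and at 489.6, 1311, 7.54 and 109.7 RPKM in PFMP. Sox10, which drives the later steps of the lineage, was at 3.33, 3.91, 0 and 13.7 RPKM in BNAP/GRP1 and at 78.7, 276, 0.545 and 21 RPKM in PFMP. Both were at least 14 times higher in PFMP in batches 1 and 2 and far lower in both libraries of batch 3. C1ql1, a secreted C1q-domain protein, differed most in batch 2 (253 against 2.75 RPKM) and stood the other way in batch 4 (12.1 against 19.9 RPKM). Neu4, a sialidase, had the smallest difference of the list (0.72), with 2.8 and 9.62 RPKM in PFMP 1 and 2 against 1.06 and 1.67 RPKM in BNAP/GRP1 1 and 2.

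Fewer genes of the myelin-forming stages differed by this measure. Of 11 tested premyelinating and myelin genes, 2 were at least 2-fold higher in PFMP in batches 1 and 2 and none in BNAP/GRP1. Ugt8a, which makes the myelin lipid galactosylceramide, was at 4.17 and 3.11 RPKM in BNAP/GRP1 1 and 2 and at 48.5 and 25.8 RPKM in PFMP 1 and 2.

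Among all genes that differed in the same direction in every batch and reached 10 RPKM in at least 3 libraries of the higher population, the 15 largest differences towards PFMP were Gm26049, Gm24888, Pdgfra, A930009A15Rik, Olig1, Scrg1, 3110035E14Rik, Cntn1, Olig2, Lhfpl3, Tmem255b, Tceal6, Opcml, Sox10 and Dusp26. Of the protein-coding genes among them Scrg1 had the smallest error. It was at 23.1, 38.6, 0.0174 and 32.3 RPKM in BNAP/GRP1 and 266, 762, 4.1 and 259 RPKM in PFMP, a difference of 3.26 ± 0.566 (SE). Cntn1, a cell adhesion protein of neurons and oligodendrocyte progenitors, was at 5.62, 4.98, 0.0327 and 29.1 RPKM in BNAP/GRP1 and at 533, 102, 0.744 and 102 RPKM in PFMP. Lhfpl3 was at 4.3, 4.03, 0 and 21 RPKM in BNAP/GRP1 and at 328, 101, 0.808 and 59 RPKM in PFMP. In all 3 the PFMP libraries of batches 1, 2 and 4 lay above every BNAP/GRP1 library, and PFMP 3 lay below 3 of them. Gm26049 (a small nuclear RNA) and Gm24888 (a small nucleolar RNA) headed the set, and since such short RNAs have near-identical copies, their values are uncertain.

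Signalling genes downstream of receptor tyrosine kinases differed in the same direction in part. Over all tested genes, 52.1% were higher in PFMP in batch 1 and 63.9% in batch 2, and 9.11% were at least 2-fold higher in both. Of 11 tested ERK targets and feedback inhibitors, 10 were higher in PFMP in batch 1 and 10 in batch 2, and 4 were at least 2-fold higher in both, with none of at least 2-fold the other way. Spry1, which dampens receptor signalling to ERK, was at 3.01, 0.479, 1.46 and 11.4 RPKM in BNAP/GRP1 and at 74.3, 52, 1.81 and 5.95 RPKM in PFMP. Etv1, an ETS factor induced by ERK, was higher in PFMP in all batches, at 23.4, 8.07, 1.34 and 9.66 RPKM against 56.1, 30.5, 2.18 and 33.1 RPKM. The immediate early genes Fos and Egr1 were high in both populations in batches 1 and 2 (107 to 482 RPKM), and Dusp6, a phosphatase of ERK, differed by less than 0.2 in every batch. Of 10 PI3K and PKC genes, 9 were higher in PFMP in batch 1 and 9 in batch 2, and 3 at least 2-fold in both. Prkcq, a protein kinase C, was at 1.43 and 2.56 RPKM in BNAP/GRP1 1 and 2 and at 11.5 and 27.3 RPKM in PFMP 1 and 2. Fyn, a Src family kinase that acts in oligodendrocyte development, was at 34.6, 17.4, 18 and 10 RPKM in BNAP/GRP1 and at 58.9, 153, 15.3 and 74.9 RPKM in PFMP. None of these genes passed the adjusted test in any of the 3 fits.

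Receptors and ligands of the PDGF and FGF families separated Pdgfra from its relatives. Of the 5 tested receptors, Pdgfra alone passed in batches 1 and 2 and was the only one with a 2-fold difference in both batches. Fgfr2 went the other way without passing (5.15 and 14.2 RPKM in BNAP/GRP1 1 and 2, 3.2 and 1.94 RPKM in PFMP 1 and 2). Pdgfrb, the beta receptor of pericytes, was below 4 RPKM in every library but BNAP/GRP1 4 (7.31 RPKM). Among the 7 tested ligands, Pdgfa, which activates the alpha receptor, was at 11, 22.5, 16.6 and 10.9 RPKM in BNAP/GRP1 and at 27.8, 54.9, 19.9 and 13.7 RPKM in PFMP. Pdgfb had the opposite sign in all batches, at 2.22, 2.5, 6.07 and 12.3 RPKM in BNAP/GRP1 and 0.141, 0.0803, 4.51 and 0.73 RPKM in PFMP. So the A chain was higher in PFMP and the B chain higher in BNAP/GRP1 in batches 1 and 2, and neither passed the adjusted test in any of the 3 fits. In batch 3 the differences were small (0.25 for Pdgfa and -0.36 for Pdgfb). The largest Pdgfb difference, -2.94 in batch 4, rested on BNAP/GRP1 4, where the median tested gene was at 11.9 RPKM.

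In the Notch pathway, 3 of 9 tested genes were at least 2-fold higher in PFMP in batches 1 and 2 and 1 in BNAP/GRP1. Dll3, a divergent ligand that inhibits Notch within the cell, was at 6.67, 7.19, 0 and 18.8 RPKM in BNAP/GRP1 and at 114, 368, 0.6 and 17.3 RPKM in PFMP. Dll1, an activating ligand, was at 4.63 and 1.94 RPKM in BNAP/GRP1 1 and 2 and at 19.3 and 7.53 RPKM in PFMP 1 and 2. Notch2 was the 1 gene with the opposite sign, at 3.57 and 10.9 RPKM against 1.01 and 1.03 RPKM. The target Hes5 was high in both populations in batches 1 and 2 (35.4 and 105 RPKM against 103 and 101 RPKM). Of 9 tested genes of the transit amplifying and proneural list, 7 were higher in PFMP in batch 1 and 7 in batch 2, with medians of 0.216 and 1.36. Over all tested genes 52.1% and 63.9% were higher in PFMP in these batches, with medians of 0.0598 and 0.472. In both batches 2 of the 9 were at least 2-fold higher in PFMP and 1 in BNAP/GRP1, and the paired median of the list was 0.335. Egfr, a receptor of transit amplifying cells, differed by at most 0.06 in batches 1 to 3.

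Of 20 genes of DNA replication and mitosis, 18 were lower in PFMP in batch 1, where 47.4% of all tested genes were, with a median of -0.797. In batch 2, 16 were higher in PFMP, where 63.9% of all tested genes were, with a median of 0.671 beside 0.472 over all tested genes. Pcna, the sliding clamp of DNA polymerase, was at 846 RPKM in BNAP/GRP1 1 against 249.8 RPKM in PFMP 1, and at 198 RPKM in BNAP/GRP1 2 against 311 RPKM in PFMP 2. No member was 2-fold apart in the same direction in both. Among 9 genes of G1 control, Ccnd1 (cyclin D1) and Ccnd3 (cyclin D3) were at least 2-fold higher in PFMP in both batches, and Cdkn1a, the p21 inhibitor, was higher in BNAP/GRP1. Ccnd1 was at 22.1, 17.2, 2.09 and 14.4 RPKM in BNAP/GRP1 and at 49.2, 176, 1.93 and 71.3 RPKM in PFMP. Cdkn1a was at 63.6, 113, 187 and 12.7 RPKM in BNAP/GRP1 and at 2.45, 7.55, 186 and 18.7 RPKM in PFMP.

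BNAP/GRP1 carried the RNA of microglia in batches 1 and 2. All 12 tested genes of the homeostatic microglia list were lower in PFMP in both batches, 11 of them by at least 2-fold in both, with medians of -6.33 in batch 1 and -3.97 in batch 2. With all batches the median was -2.8, 8 of the 12 had an unadjusted p under 0.05, and none passed after adjustment. Without batch 3, 1 of the 12 passed (Trem2), and in batches 1 and 2 alone, 2 did (Trem2 and Fcrls). The 14 members summed to 4003 and 769 RPKM in BNAP/GRP1 1 and 2, and to 60.7 and 85.4 RPKM in PFMP 1 and 2. The part of the microglial RNA in the other differences between these gates was not tested.

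P2ry12, the purinergic receptor of resting microglia, stood at 368, 64.7, 1.49 and 11.5 RPKM in BNAP/GRP1 1 to 4 and at 2.83, 2.09, 0.951 and 13 RPKM in PFMP 1 to 4. Cx3cr1, the fractalkine receptor, was at 231, 39.2, 0.478 and 10.7 RPKM in BNAP/GRP1 and at 0.383, 0.875, 0.549 and 4.22 RPKM in PFMP. Fcrls was at 517, 78.6, 1.21 and 6.03 RPKM in BNAP/GRP1 and at 0.8, 1.69, 2.46 and 4.84 RPKM in PFMP. For these 3 the populations were furthest apart in batches 1 and 2, and both libraries of batch 3 were near the PFMP level. Trem2, a lipid receptor of microglia and other macrophages (GRCm38 chr17:48346401-48354147, plus strand), was at 247, 116, 334 and 27.1 RPKM in BNAP/GRP1 and at 0.126, 0.576, 289 and 3.96 RPKM in PFMP. Its difference was -7.00 ± 0.87 (SE) in batches 1 and 2, with a limma adjusted p of 0.0211 (range over alternatives 0.0211 to 1). Sparc, a matrix protein, was the member that went least with the list, at 516, 111, 33.7 and 26.8 RPKM in BNAP/GRP1 and at 44.9, 59.5, 29.7 and 386 RPKM in PFMP.

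Myeloid regulators and receptors showed the same direction. All 18 were lower in PFMP in batches 1 and 2, 17 of them by at least 2-fold in both, with medians of -6.35 and -4.26. At an unadjusted p under 0.05 in all 4 batches there were 16 of 18, none of which passed after adjustment. Without batch 3, 4 passed (Tyrobp, Aif1, Laptm5 and C1qa), and in batches 1 and 2 alone 8 did, these 4 with Fcer1g, Cd68, C1qb and C1qc. Tyrobp, the signalling adaptor of Trem2 (GRCm38 chr7:30413760-30417585, plus strand), was at 2189, 1399, 1436 and 16 RPKM in BNAP/GRP1 and at 4.18, 7.5, 1406 and 12.1 RPKM in PFMP. C1qa, a chain of the complement protein C1q (GRCm38 chr4:136895917-136898803, minus strand), was at 1053, 387, 585 and 16.3 RPKM in BNAP/GRP1 and at 0.475, 3.25, 563 and 7.67 RPKM in PFMP. The BNAP/GRP1 libraries of batches 1 and 2 stood more than 100 times above their PFMP partners for both genes, and in batch 3 both libraries were high. In batches 1 and 2 the differences were -8.04 ± 0.774 (SE) for Tyrobp (limma adjusted p = 0.00972, range over alternatives 0.00972 to 1) and -8.00 ± 0.927 for C1qa (adjusted p = 0.0205, range 0.0205 to 1). Spi1, which encodes PU.1, was at 36.6, 22.8, 192 and 15.7 RPKM in BNAP/GRP1 and at 0.527, 0.215, 180.5 and 1.56 RPKM in PFMP.

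The 15 largest differences towards BNAP/GRP1 by the same rule were Gm24265, RP24-80F7.8, C1qa, Trem2, Ly86, Tyrobp, Spp1, Gm15799, AF251705, Bcl2a1b, 1700003F12Rik, Pycard, Aif1, Laptm5 and Ptpn18. Spp1, osteopontin, had the widest range of them within BNAP/GRP1, at 16256, 245, 1058 and 15.3 RPKM in BNAP/GRP1 and at 3.34, 45.7, 966 and 4.54 RPKM in PFMP. Ptpn18, a tyrosine phosphatase, varied least within BNAP/GRP1, at 51.2, 75.4, 29.9 and 44.3 RPKM against 1.83, 1.1, 27.2 and 1.09 RPKM. Outside that set, Cd52, a surface glycoprotein of leukocytes, was at 389.9, 417, 1155 and 30.2 RPKM in BNAP/GRP1 and at 0.725, 0.828, 1197 and 2.68 RPKM in PFMP. Its difference without batch 3 was -6.25 ± 0.938 (SE; limma adjusted p = 0.00678, range over alternatives 0.00678 to 1). Mir142hg, the host transcript of a microRNA of blood cells, had the smallest adjusted p of the genes higher in BNAP/GRP1 in that fit, 0.000593 (range 0.000593 to 1). It was at 152, 636, 268 and 39.3 RPKM in BNAP/GRP1 and at 0, 1.89, 366 and 0 RPKM in PFMP. Crybb1, a crystallin expressed by immature microglia, was at 141, 155, 0 and 7.14 RPKM in BNAP/GRP1 and at 0, 0.513, 0.126 and 1.82 RPKM in PFMP, so unlike Tyrobp it was below 1 RPKM in both libraries of batch 3. Gm3699, a processed pseudogene, had the smallest adjusted p without batch 3, 1.39e-05 (range over alternatives 1.39e-05 to 1). It was at 0, 0, 3805 and 0 RPKM in BNAP/GRP1 and at 1831, 714, 0 and 119 RPKM in PFMP, the opposite way in batch 3, and its reads may belong to other copies of the sequence.

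**Figure D3:**
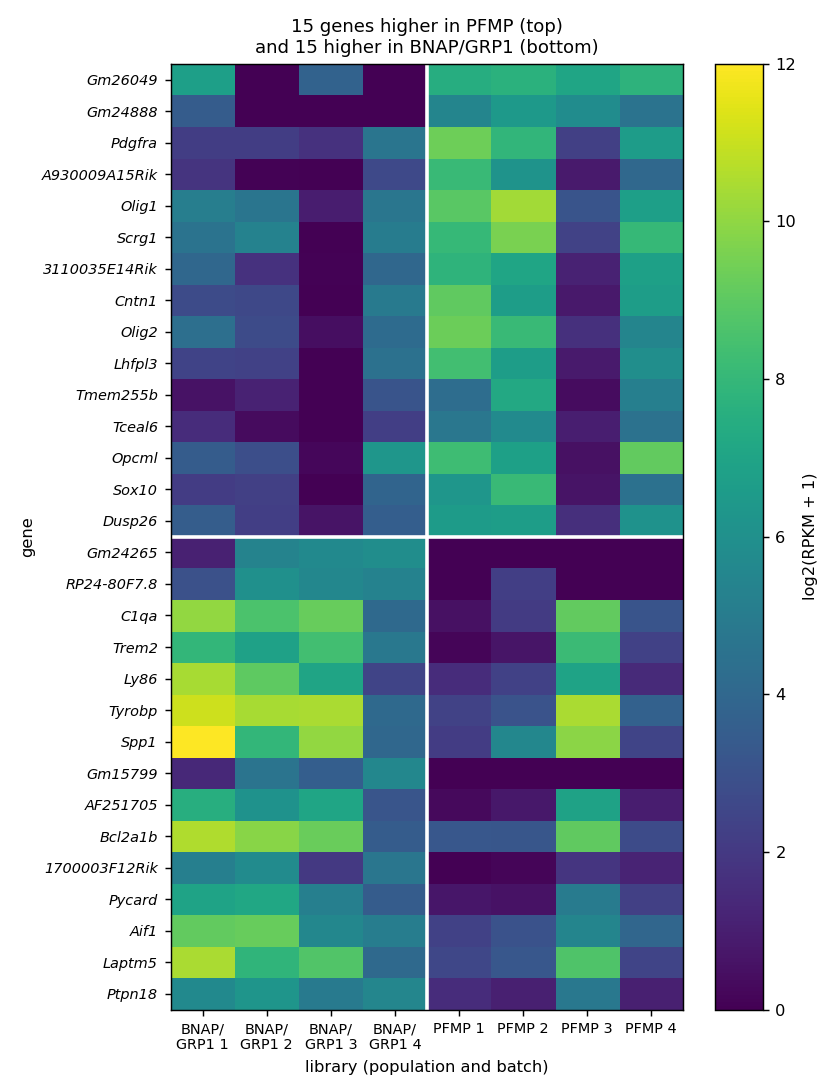
Colour gives log2(RPKM + 1) of the 15 genes with the largest differences towards PFMP (upper rows) and the 15 towards BNAP/GRP1 (lower rows) in the 8 libraries. The upper block is bright in PFMP 1, 2 and 4 and the lower block in BNAP/GRP1 1 and 2, and for most rows the 2 libraries of batch 3 have like colours.

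The promoters of 2 genes from each side are printed to show the sequence at genes that differed in the same direction (RefSeq, GRCm38.p6, 250 bases before to 50 after the start, 5′ to 3′ on the strand of the gene). They were searched on both strands for the PU box, GAGGAA, the core of sites for PU.1, and for ACAAAG, a core of sites for SOX factors. Capitals mark the PU box, read here on the opposite strand as TTCCTC, and neither motif occurred in the windows of Pdgfra and Olig2. The windows are chr17:48346151-48346450 (Trem2, plus strand), chr17:35176003-35176302 (Aif1, minus strand), chr5:75152001-75152300 (Pdgfra, plus strand) and chr16:91225300-91225599 (Olig2, plus strand).
Trem2: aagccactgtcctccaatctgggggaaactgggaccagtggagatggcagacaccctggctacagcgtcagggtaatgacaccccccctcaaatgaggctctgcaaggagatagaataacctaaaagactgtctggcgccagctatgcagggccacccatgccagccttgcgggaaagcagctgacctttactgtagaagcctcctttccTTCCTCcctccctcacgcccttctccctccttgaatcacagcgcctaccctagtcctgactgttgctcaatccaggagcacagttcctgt
Aif1: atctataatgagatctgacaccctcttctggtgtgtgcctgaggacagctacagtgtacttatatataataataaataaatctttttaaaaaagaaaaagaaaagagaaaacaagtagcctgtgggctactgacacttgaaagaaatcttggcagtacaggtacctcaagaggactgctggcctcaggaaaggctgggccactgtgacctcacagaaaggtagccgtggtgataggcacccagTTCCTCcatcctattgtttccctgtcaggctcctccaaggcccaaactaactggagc
Pdgfra: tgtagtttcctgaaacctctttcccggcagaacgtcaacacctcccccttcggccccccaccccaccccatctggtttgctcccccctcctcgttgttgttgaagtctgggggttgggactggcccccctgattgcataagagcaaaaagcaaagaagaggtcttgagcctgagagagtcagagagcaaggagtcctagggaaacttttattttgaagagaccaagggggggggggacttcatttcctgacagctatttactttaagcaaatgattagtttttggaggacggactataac
Olig2: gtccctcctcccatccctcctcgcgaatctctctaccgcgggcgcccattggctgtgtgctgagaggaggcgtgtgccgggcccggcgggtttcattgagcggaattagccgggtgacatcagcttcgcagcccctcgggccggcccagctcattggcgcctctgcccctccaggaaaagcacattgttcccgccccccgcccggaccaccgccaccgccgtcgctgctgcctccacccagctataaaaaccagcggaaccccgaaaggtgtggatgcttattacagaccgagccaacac
RefSeq promoters were found for 9 of the 15 genes higher in BNAP/GRP1 (10 promoters) and 8 of the 15 higher in PFMP (10 promoters). The PU box occurred in 6 of the first 10 and 2 of the second 10, and in 28.3% of all 32851 promoters. ACAAAG occurred in 4 and in 0 of them, and in 18.7% of all promoters. The printed windows of Trem2 and Aif1 both hold the PU box. The window of Ly86, another of the 15 genes higher in BNAP/GRP1, held no PU box and 1 ACAAAG. A match is a description of the letters and not a site.

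Inflammatory cytokines were higher in BNAP/GRP1 in batches 1 and 2 and, summed over the list, highest in both libraries of batch 3 (24833 and 25955 RPKM). All 12 tested genes of this list were lower in PFMP in batch 2 and 11 in batch 1, and 11 were at least 2-fold lower in both, with medians of -3.84 and -6.28. Ccl3, a chemokine of activated macrophages, was at 573, 1409, 5456 and 15.2 RPKM in BNAP/GRP1 and at 1.27, 5.4, 5789 and 46.7 RPKM in PFMP. Tnf, tumour necrosis factor, was at 27.1, 146, 1247 and 10.7 RPKM in BNAP/GRP1 and at 0.675, 0.424, 1266 and 0.58 RPKM in PFMP. The levels in batch 3 exceeded those of BNAP/GRP1 1 and 2 for both, in both populations. Tnf passed without batch 3 (limma adjusted p = 0.0458) and not in batches 1 and 2 alone (0.0754), with a range over alternatives of 0.0342 to 1. In batches 1 and 2 alone, 3 genes of the list passed: Ccl2, Ccl3 and Ccl12. The adjusted p of Ccl3 was 0.00972 there in limma's test, with a range over alternatives of 0.00972 to 1. Il1b was the exception in batch 1, at 2.14 RPKM in BNAP/GRP1 1 and 8.12 RPKM in PFMP 1, against 43.7 and 1.49 RPKM in batch 2.

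**Figure D4:**
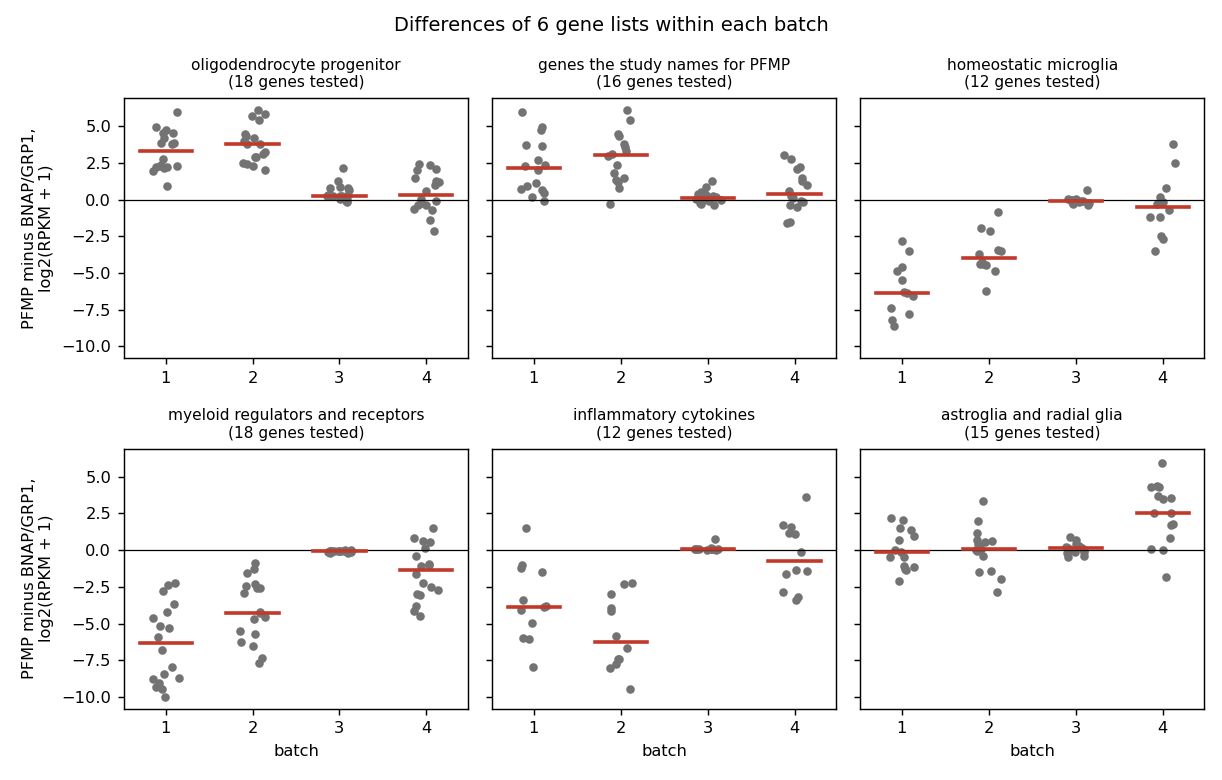
Points are the tested genes of 6 lists, by batch, as PFMP minus BNAP/GRP1 in log2(RPKM + 1), and red bars are their medians. The oligodendrocyte progenitor genes lie above 0 and the microglial and myeloid genes below 0 in batches 1 and 2, most genes lie near 0 in batch 3, and in batch 4 the astroglial list is highest, with a median of 2.56.

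Batch 3, taken apart, held another mixture of RNA in both of its libraries. Globins took a large share, with Hbb-bs at 98873 RPKM in BNAP/GRP1 3 and 102862 RPKM in PFMP 3, against 19.5 to 1078 RPKM in the other 6 libraries. The erythrocyte list took 17% and 17.9% of the RPKM sum of these libraries, and at most 0.154% of that of any other. Scgb1a1, the secretory protein of airway club cells, was at 965 and 947 RPKM in batch 3, at 13.6 RPKM in BNAP/GRP1 4 and at no more than 0.0976 RPKM elsewhere. Chil3, a chitinase-like protein of alveolar macrophages, was at 621 and 611 RPKM, and Igkc, the constant part of the kappa light chain, at 1518 and 1720.4 RPKM. Lyz2, lysozyme, reached 22453 and 22018 RPKM. None of the 10 lung epithelium genes passed the filter on low values, so the paired test did not use them. Oligodendrocyte progenitor and resting microglia genes were low in both, with the 18 genes of the first list at a sum of 26.3 and 40.4 RPKM and P2ry12, Tmem119 and Cx3cr1 each below 1.5 RPKM. The 16 astroglia and radial glia genes summed to 1263 and 1256 RPKM in batch 3. Most of that was Vim, an intermediate filament protein also made outside the brain (981 and 935 RPKM), with Fabp7, a fatty acid binding protein of radial glia, at 197 and 239 RPKM against 327 to 12636 RPKM in the other 6 libraries. Within batch 3, 15 of 18 oligodendrocyte progenitor genes were higher in PFMP 3 (median 0.271), 17 of 18 myeloid genes were lower (median -0.0799) and all 12 cytokine genes were higher (median 0.0604), where 48.3% of all tested genes were higher in PFMP 3.

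BNAP/GRP1 4, the library with the lowest estimated depth, gave similar low levels for most genes of several unrelated cell types. The 10 lung epithelium genes lay between 5.92 and 20.8 RPKM in it, the 12 endothelial genes between 4.48 and 35.8 RPKM, the 14 homeostatic microglia genes between 4.91 and 34.3 RPKM and the 18 oligodendrocyte progenitor genes between 7.82 and 53.3 RPKM. Other lists reached further, to 119 RPKM for Rgs5 among the pericyte genes and 327 RPKM for Fabp7 among those of astroglia and radial glia. Its share of tested genes between 2 and 30 RPKM was 85.1%, against 48.9% to 59.5% in the other 7 libraries. The median difference over all tested genes in batch 4 was -0.818. PFMP 4 in turn held genes at levels seen in no other library. Aldoc, an astrocyte aldolase, was at 2344 RPKM in PFMP 4 and at 10.7 to 71.3 RPKM in the other 7 libraries. Gfap, the astrocyte intermediate filament, was at 268 RPKM in PFMP 4 and below 3 RPKM in all others but BNAP/GRP1 4 (11.9 RPKM). The astroglia and radial glia list had a median difference of 2.56 in batch 4, with 13 of 15 higher in PFMP, and of -0.124 and 0.11 in batches 1 and 2. There S100b was at least 2-fold higher in PFMP in both, and Aqp4, Glul and Gja1 in BNAP/GRP1. Mitochondrial transcripts also went apart by batch, with medians of -0.379, -1.87, 0.0612 and 1.15 for the 9 genes of the list, of which mt-Co1 and mt-Co3 were at least 2-fold higher in BNAP/GRP1 in batches 1 and 2.

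Markers of other cell types gave few differences of at least 2-fold in both batches 1 and 2. No gene of the neuroblast, vascular, ependymal, erythrocyte, alveolar macrophage, immunoglobulin and olfactory receptor lists passed limma's adjusted test in any of the 3 fits, and neither did one of the astroglia, myelin, Notch, transit amplifying, replication, G1 control and mitochondrial lists. With all batches, the genes of these lists with an unadjusted p under 0.05 were 2 of the immunoglobulin list and 1 each of the astroglia, myelin, Notch, transit amplifying and G1 control lists. Of 17 neuroblast and interneuron genes, Dcx was at least 2-fold higher in PFMP in batches 1 and 2, and Dlx1, Sp8 and Sp9 were at least 2-fold higher in BNAP/GRP1. Sp8, a factor of olfactory bulb interneurons, was at 7.74 and 17.3 RPKM in BNAP/GRP1 1 and 2, at 2.15 and 0.949 RPKM in PFMP 1 and 2, and at 256 RPKM in PFMP 4. Of the vascular lists, 3 of 10 pericyte, 2 of 7 smooth muscle, 8 of 12 endothelial and 5 of 7 fibroblast genes could be tested, and the 1 member with a 2-fold difference in both batches was Tpm2, a tropomyosin, at 4.98 and 2.76 RPKM in BNAP/GRP1 and 1.56 and 0.595 RPKM in PFMP. Foxj1, the master regulator of motile cilia, was below 0.5 RPKM in all libraries but BNAP/GRP1 4 (9.42 RPKM), and 4 of 10 ependymal genes could be tested, of which Cfap126 was at least 2-fold higher in BNAP/GRP1 in batches 1 and 2. All 4 tested erythrocyte genes were at least 2-fold higher in BNAP/GRP1 in batches 1 and 2, with Hbb-bs at 269 and 1078 RPKM against 68.1 and 213 RPKM. Of 4 tested alveolar macrophage genes 1 met the same measure, Mrc1 (28.7 and 4.53 RPKM against 1.16 and 0.13 RPKM), which brain border macrophages also express. Of 5 tested immunoglobulin genes 1 met it, Ighm, with 42.4 and 20.2 RPKM against 0.539 and 0.192 RPKM. Of 21 tested olfactory receptor genes, 2 met it towards PFMP and none towards BNAP/GRP1.

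How far did the batches repeat each other? Across tested genes, the differences of batches 1 and 2 correlated at r = 0.276 and those of batches 2 and 4 at 0.303, while batches 1 and 4 gave -0.0858 and batch 3 gave at most 0.0288 with any other. These are descriptions across genes, which are not independent replicates, and each pair of batches shares no library. The 100 genes with the largest difference towards BNAP/GRP1 in batch 1 (median -6.56) had the same sign in batch 2 for 90 genes, with a median of -3.81. The count was 61 in batch 3 (median -0.0406) and 59 in batch 4 (median -0.346). The 100 largest towards PFMP in batch 1 (median 4.07) had the same sign in batch 2 for 79 (median 2.71), in batch 3 for 60 (median 0.115) and in batch 4 for 38 (median -0.552). Over all tested genes, 35.1% were higher in BNAP/GRP1 and 63.9% in PFMP in batch 2, 46.8% and 48.3% in batch 3, and 63.6% and 35.9% in batch 4. So both sets had the sign of batch 1 more often than all tested genes in batch 2, and in batch 3 too, though with small medians there. In batch 4 they had it about as often as all tested genes.

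**Figure D5:**
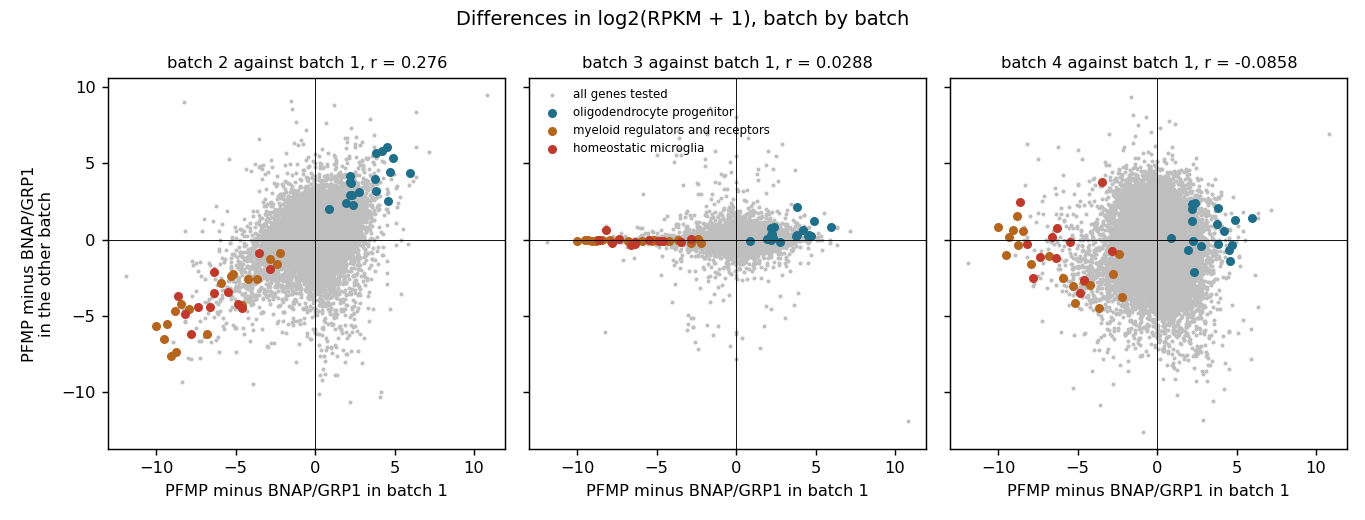
Each grey point is a tested gene, with its difference (PFMP minus BNAP/GRP1) in batch 1 on the x axis and in batch 2, 3 or 4 on the y axis, and coloured points are 3 marker lists. The lists separate along both axes in batch 2, lie near 0 on the y axis in batch 3 and overlap on it in batch 4.

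The genes the study names for the populations were compared directly as well. The study chose them on these samples, so their direction is not independent evidence. They were named against neural stem cells, some for a higher level in the progenitors and some for a lower one. Of 16 tested genes named for PFMP, 9 were at least 2-fold higher in PFMP in batches 1 and 2 and none in BNAP/GRP1, with a paired median of 1.53 and 8 at an unadjusted p under 0.05. Tmem255b was at 0.494, 1.19, 0.00836 and 7.75 RPKM in BNAP/GRP1 and at 18.4, 150.5, 0.326 and 35.7 RPKM in PFMP, and Brinp3 at 0.999, 2.42, 0.00269 and 19.6 RPKM against 23.7, 39.5, 0.352 and 39.1 RPKM. Rxrg, a retinoid X receptor, had most of its RNA in 1 library (40 RPKM in PFMP 4, at most 5.2 RPKM elsewhere). Lbx2, Nkx2-4, Hoxc11 and Tbx1, which are on the list for a lower level in PFMP, were listed at or near 0 in every PFMP library (at most 0.0302 RPKM) and were not tested. Of 9 tested genes named for BNAP/GRP1, 4 were at least 2-fold higher in BNAP/GRP1 in batches 1 and 2 (Tnf, Cryba4, Gpr34 and Spi1) and 2 higher in PFMP (Sox21 and Tsc22d1). Sox21 and Tsc22d1 are on the list for a lower level in BNAP/GRP1. Cryba4, a crystallin, was at 116, 118, 2.68 and 3.8 RPKM in BNAP/GRP1 and at 0, 0.728, 1.59 and 2.13 RPKM in PFMP. Gpr34, a lysophospholipid receptor of microglia, was at 149.6, 7.25, 0.868 and 4.91 RPKM against 0.879, 0.847, 0.514 and 9.23 RPKM. Igkv4-56 rested on BNAP/GRP1 2, at 150.0 RPKM there and at most 5.64 RPKM in the other libraries. Hoxc6 was at 11.2 and 12.3 RPKM in BNAP/GRP1 2 and 4 and at most 0.648 RPKM in the other libraries. Zfp57 was highest in PFMP 4 (317 RPKM) and BNAP/GRP1 4 (59.7 RPKM) and at most 4.17 RPKM in the other 6 libraries.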

How the data were processed

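The authors deposited RPKM values (reads per length of gene and size of library) of 45705 genes in 20 libraries. According to the submitters' processing notes, FastQC 0.11.9, cutadapt 3.4, STAR 2.6.1, Salmon 1.9.0 and DESeq2 1.26.0 were used, with GRCm38. The gene lengths and read totals are not given in the sources used here. The authors' DESeq2 tests are not in the table. Genes were followed by Ensembl identifier, since 94 names occurred more than once. The 26 unnamed columns of the file are empty.

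The 8 libraries were log2-transformed after adding 1, without other scaling, and fitted with limma 3.58.1 in R 4.3.3 (batch and population as terms, trended prior). Such differences understate changes of low genes. The Benjamini-Hochberg adjustment ran over 15452 genes, with a threshold of 0.05. The labels give batches as shared numbers, and the fit paired the samples by them. Deviations from the population means correlated at 0.236, 0.414, 0.779 and 0.193 within batches 1 to 4. Between libraries of different batches they correlated at -0.554 to 0.268, so the values of batches 1 and 4 lay within that range. The study counts 4 independent experiments with pups pooled by litter, and the labels add only batch numbers. So p-values measure the spread between these libraries, moderated by limma's prior. The steps were tested on simulated data. Recovery of shifted genes was required there at a set spread, not at the spread of these data. Positions are from GENCODE vM21, and figures were drawn with matplotlib 3.10.9 in Python 3.11.15.

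Genes named are the sort antigens, the 15 largest differences in each direction (same sign in 4 batches, at least 10 RPKM in at least 3 libraries of the higher population), members of 29 gene lists, and genes the study names. Cd52, Mir142hg, Crybb1 and Gm3699 were added after their values were seen. The members and lists were chosen with earlier results of these data known. The 22 alternatives cover the replicate block, pseudocount, filters, scaling, prior, weights and libraries left out.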

Additional observations from a re-analysis of the deposited data

Results flagged for a closer look

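A library is given here where, in a population of 4, its gap to the nearest other library was above Dixon's 95% limit as a share of the range of the gene, in log2(RPKM + 1). Of 226 groups, 39 were found. The limit would mark about 1 in 20 groups by chance, but that rate is no reference here. The genes were chosen with earlier results of these data known, and genes of a library do not vary independently. PFMP 3 accounted for 18 of them, PFMP 4 for 7, BNAP/GRP1 4 for 5 and BNAP/GRP1 3 for 5.

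PFMP 3 was high for Tnf (1266 RPKM), Spi1 (180.5 RPKM), Tyrobp (1406 RPKM), Laptm5 (414 RPKM), Scgb1a1 (947 RPKM), Chil3 (611 RPKM), Igkc (1720.4 RPKM) and Ly86 (123 RPKM). It was also high for AF251705 (118 RPKM), Bcl2a1b (542 RPKM), Ptpn18 (27.2 RPKM), Vim (935 RPKM) and Cd52 (1197 RPKM). It was low for Fabp7 (239 RPKM), Brinp3 (0.352 RPKM), S100b (0.232 RPKM), 3110035E14Rik (1.2 RPKM) and Dusp26 (2.02 RPKM). Among these chosen genes, myeloid, airway and immunoglobulin genes were high in PFMP 3 beside the other PFMP libraries.

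PFMP 4 was high for Ccl12 (70.1 RPKM), Zfp57 (317 RPKM), Gpr34 (9.23 RPKM), Gfap (268 RPKM), Sp8 (256 RPKM) and Cfap126 (4.46 RPKM), and for Tbx1 at 0.00733 RPKM beside others listed at 0. PFMP 1 was high for Igkv4-56 (2.84 RPKM) and PFMP 2 for RP24-80F7.8 (3.75 RPKM).

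BNAP/GRP1 4 was high for Pdgfra (24.1 RPKM), Hoxc11 (8.36 RPKM), Tbx1 (11.9 RPKM) and Foxj1 (9.42 RPKM) and low for Tyrobp (16 RPKM). BNAP/GRP1 3 was low for Olig1 (0.926 RPKM), S100b (0.692 RPKM) and Scrg1 (0.0174 RPKM) and high for Vim (981 RPKM) and Gm3699 (3805 RPKM). BNAP/GRP1 1 was high for Gm24888 (10.1 RPKM) and low for Gm24265 (1.15 RPKM).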

How the results depend on the processing

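No gene passed in 17 of the 22 alternatives. The count was 3 with array weights and 44 in batches 1 and 2 alone, and it ran from 0 to 124 over the fits that left out a batch or a library. Of the latter, 124 genes passed without batch 1, 32 without batch 3 and 1 without PFMP 3. Without the replicate block, and so without the pairing by batch, 0 genes passed and 340 had an unadjusted p under 0.05, 47 of them higher in PFMP and 293 higher in BNAP/GRP1. The cause of these shifts was not tested. The Pdgfra difference was positive throughout, at 6.46 in batches 1 and 2 and 2.76 to 5.28 over the fits that left out a batch or a library. Medians of the oligodendrocyte progenitor list stayed positive (1.28 to 3.42) and those of homeostatic microglia negative (-4.74 to -1.52). Median-of-ratios scaling moved the median of all genes from -0.03 to 0.09 and quantile normalization to 0.10. The narrow spread of values in BNAP/GRP1 4, whose estimated depth was lowest, limits what batch 4 can show.

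The sign of 25 of the 104 tested genes named turned in at least 1 alternative, none of them having passed with all batches. Over the fits that left out a batch or a library, the differences were Prom1 -1.21 to 0.30, Fut4 -1.03 to 0.37, Il1b -4.07 to 0.70, Egfr -0.52 to 0.34, Dll1 -0.08 to 1.25, Pcna -0.65 to 1.19, Ccnd3 -0.03 to 1.39, Dusp6 -0.51 to 0.49, Egr1 -0.55 to 1.39, Hes5 -0.34 to 1.91, mt-Co1 -1.0 to 0.24, Sox21 -0.32 to 1.48, Sparc -1.52 to 0.91, Gfap -0.84 to 1.84, Aqp4 -1.04 to 0.59, Aldoc -0.62 to 2.13, Glul -0.96 to 0.94, Gja1 -1.21 to 0.94, Dlx1 -1.69 to 0.27, Sp8 -1.94 to 0.81, Hbb-bs -3.29 to 1.53, Igkc -3.03 to 1.64, Vim -1.05 to 1.3, Rgs5 -2.17 to 0.19. With quantile normalization they were Fut4 0.00, Egfr 0.08, Dusp6 0.12, Aqp4 0.15, Gja1 0.10 and Vim -0.27, and with median-of-ratios scaling Dusp6 0.06 and Gja1 0.09. In batches 1 and 2 alone they were Fut4 0.59, Egfr 0.02, Pcna -0.55, Gfap -0.17, Aldoc -0.73, Glul -1.38 and Igkc 0.87. Array weights gave Egfr 0.01, Pcna -0.07, Aldoc -0.18, Glul -0.30, Dlx1 0.07, Igkc 0.25 and Gm3699 -4.42, and a pseudocount of 0.1 gave Aqp4 0.01.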
